A study of Mus musculus with 12 samples.

Results

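The 9 genes described here encode the giant sarcomere protein titin (*Ttn*), the M-band proteins obscurin-like 1 (*Obsl1*) and myomesins 1 to 3 (*Myom1*, *Myom2*, *Myom3*), the myosin-binding proteins C and H (*Mybpc1*, *Mybpc2*, *Mybph*), and the nebulin-related anchoring protein (*Nrap*). They were taken by name as 9 rows of the 55536 genes in the deposited table of read counts. The cells were C2C12 myoblasts that carry green fluorescent protein, a mouse line that fuses into myotubes in low-serum medium. They were kept on uncoated plates (control) or on a coating of Collagen I, of fibronectin, or of Geltrex™, a basement membrane gel of laminin, Collagen IV, and entactin. Each of the 4 groups had 3 samples, all of the same line, and neither the labels nor the methods say whether the 3 were separate cultures or on which day of differentiation the RNA was taken. P-values here therefore measure the spread between these samples, which may be technical.

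Titin is a single chain that reaches from the Z-disc, where thin filaments are anchored, to the M-band in the middle of the sarcomere, and it acts as a spring and a ruler for the thick filament. At the M-band, myomesins and obscurin-like 1 cross-link titin and the tails of myosin, while the myosin-binding proteins sit in stripes along the thick filament and bind both myosin and titin. Nrap belongs to the assembly stage, where it organizes actin and α-actinin in premyofibrils. The family members differ between muscle fibers: *Mybpc1* encodes the slow-type and *Mybpc2* the fast-type protein C, and the product of *Myom2*, M-protein, is described mainly in fast fibers.

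The 12 libraries held between 22520404 and 27351766 counts on genes. Levels are in CPM, which are counts scaled by the TMM library size, and differences as log2 fold changes with the standard error (SE) and the Benjamini-Hochberg adjusted p of edgeR's quasi-likelihood test over 14499 genes. A gene was called at an adjusted p of at most 0.05. All 9 genes passed the filter on low counts. Within Collagen I, all 9 genes lay below the group mean in replicate 3, with a median deviation of −0.29 on the log2 scale, and this library had the largest root mean square deviation over all genes of the 12 (0.272, against 0.187 to 0.247 in the others). All 9 also lay below their group mean in control replicate 3 (median −0.14) and in Geltrex™ replicate 2 (median −0.09). The Geltrex™ samples differed from each other less than those of any other group, with a mean chi-square per gene of 2.17 to 4.54 between pairs against 7.73 to 65.1 in the other groups.

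The labelled cell type was checked with its markers. The 10 skeletal muscle markers summed to 6871 to 7756 CPM in the control, 7380 to 7674 on Collagen I, 2353 to 2714 on fibronectin, and 3125 to 3398 on Geltrex™. The 10 markers of proliferating cells ran the other way, at 401 to 465, 322 to 334, 895 to 1150, and 924 to 995 CPM, respectively. Of the muscle markers, 8 of 9 tested fell on fibronectin and 9 of 9 on Geltrex™ relative to the control, and 9 of 10 proliferation markers rose on each. Over all genes, 14.7% and 16.6% were called lower on these coatings, and 2485 and 2373 of 14499 higher. The muscle and proliferation lists moved with the differences of fibronectin and Geltrex™ from the control and Collagen I, and their part in them was not tested. Between fibronectin and Geltrex™, 4 of 9 muscle markers were lower on fibronectin and 0 of 10 proliferation markers were called. Of all genes, 9.06% were called lower and 10.3% higher on fibronectin. Between Collagen I and the control, 0 of 9 muscle markers were called and 1 of 10 proliferation markers was called lower on Collagen I, as were 0.917% of all genes. The log2 fold changes of the proliferation markers ran from −0.70 to −0.14 there (median −0.42, against −0.0031 over all genes). Their part in the differences between these groups was not tested. In such bulk RNA, fewer myotubes and less RNA per myotube cannot be told apart. The 6 fibroblast markers summed to 6055 to 6640 CPM in the control, 5829 to 6651 on Collagen I, 5392 to 6471 on fibronectin, and 5251 to 5625 on Geltrex™. Of these markers 3 of 6 fell on fibronectin and 4 of 6 on Geltrex™ relative to the control (medians −0.32 and −0.90), and their part in the results was not tested. The sums of the 5 macrophage, 4 endothelial, and 4 adipocyte markers stayed at or below 1.85, 0.39, and 0.388 CPM, with 2 of 5, 3 of 4, and 3 of 4 genes at 3 counts or fewer in every sample.

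Promoters are shown for *Ttn*, *Myom3*, *Myom1*, *Mybph*, and *Nrap*. Those of *Obsl1*, *Mybpc1*, and *Mybpc2* were searched as well but are not printed. The RefSeq table of GRCm38.p6 held 8 of the 9 genes, and *Myom2* was not among them. Each sequence is the 250 bases before the RefSeq transcription start, read 5′ to 3′ on the strand of the gene. *Ttn* lies at chr2:76982548-76982797 (minus strand), *Myom3* at chr4:135759465-135759714 (plus), *Myom1* at chr17:71019307-71019556 (plus), *Mybph* at chr1:134193198-134193447 (plus), and *Nrap* at chr19:56390039-56390288 (minus). The RefSeq start of *Myom1* lies inside the GENCODE gene, downstream of its first base. For *Mybpc2*, alone among the 8, the bases just after the RefSeq start were not found near the start of any GENCODE transcript. Capitals mark the matches named below, except those of the looser E-box CANNTG, which are in lower case unless they read CAGCTG.
Ttn: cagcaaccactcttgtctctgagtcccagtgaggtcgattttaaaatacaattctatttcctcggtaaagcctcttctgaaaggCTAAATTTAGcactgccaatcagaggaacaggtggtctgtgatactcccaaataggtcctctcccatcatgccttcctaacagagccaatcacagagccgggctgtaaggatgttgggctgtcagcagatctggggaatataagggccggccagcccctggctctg
Myom3: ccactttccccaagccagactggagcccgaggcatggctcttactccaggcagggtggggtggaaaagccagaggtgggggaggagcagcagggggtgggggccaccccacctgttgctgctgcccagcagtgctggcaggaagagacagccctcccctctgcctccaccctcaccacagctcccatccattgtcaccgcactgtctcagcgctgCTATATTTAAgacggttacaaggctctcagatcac
Myom1: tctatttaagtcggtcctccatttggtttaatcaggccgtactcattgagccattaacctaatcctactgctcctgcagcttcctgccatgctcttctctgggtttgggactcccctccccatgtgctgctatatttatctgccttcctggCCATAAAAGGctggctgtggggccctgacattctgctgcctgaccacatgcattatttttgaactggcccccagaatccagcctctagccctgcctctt
Mybph: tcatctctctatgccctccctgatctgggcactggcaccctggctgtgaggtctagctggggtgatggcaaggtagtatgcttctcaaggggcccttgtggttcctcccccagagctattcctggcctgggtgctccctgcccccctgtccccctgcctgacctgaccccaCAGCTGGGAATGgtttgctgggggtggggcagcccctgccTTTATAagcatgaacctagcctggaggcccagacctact
Nrap: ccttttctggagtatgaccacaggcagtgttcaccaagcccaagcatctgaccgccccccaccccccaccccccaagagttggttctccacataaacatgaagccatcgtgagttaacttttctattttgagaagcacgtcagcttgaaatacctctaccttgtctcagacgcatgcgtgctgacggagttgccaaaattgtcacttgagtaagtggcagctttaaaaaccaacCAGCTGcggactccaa

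The capitals in *Ttn*, 166 to 157 bases before the start, and in *Myom3*, 35 to 26 bases before it, match the MEF2 consensus, which 2.92% of the 32851 promoters in the table hold in the same window. In *Myom1* they match the CArG box of serum response factor, 99 to 90 bases before the start, which 1.47% hold. The E-box CAGCTG, a form bound by myogenic factors, begins 79 bases before the start of *Mybph* and 16 bases before that of *Nrap*. It also occurs in *Mybpc1*, 87 bases before the start, and in *Obsl1*, at 187 and 153 bases, and 13.0% of all promoters hold it. The 6 bases that follow it directly in *Mybph* match the MCAT element CATTCC on the other strand, which is also found 62 bases before the start of *Mybpc2* and in 12.6% of promoters. The looser E-box CANNTG, which includes CAGCTG, was present in all 8 promoters and in 66.2% of the table. TATAAA was found in 1 of the 8 promoters, that of *Mybph*, on the other strand 39 to 34 bases before the start, and in 12.4% of the table. Both strands were searched for every motif, and a match of letters is not a measured binding site.

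*Ttn* gave the most counts of the 9 over all samples, from a gene of 116.825 kb of merged exon sequence on chromosome 2. In the control, its level was 1489, 1351, and 1337 CPM in replicates 1 to 3. On Collagen I it was 1732, 1526, and 1362 CPM. All of these samples lay above those on the remaining coatings.

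On fibronectin, *Ttn* stood at 377, 427, and 420 CPM. On Geltrex™ it stood at 576, 673, and 909 CPM. The ranges of these 2 groups did not overlap with each other or with the control. *Ttn* fell by 1.77 on the log2 scale on fibronectin relative to the control (SE 0.14, adjusted p = 1.72e-07), to 29.3% of the control level. On Geltrex™ it fell by 0.95 (SE 0.14, adjusted p = 5.50e-05), to 51.7%. The order of means was thus Collagen I (1540 ± 186 CPM, SD, n = 3), control (1392 ± 83.9), Geltrex™ (719 ± 171), and fibronectin (408 ± 27.0), and the 2 neighbors at the top were not distinguished (log2 fold change 0.15, SE 0.13, adjusted p = 0.634).

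By sample, the levels of the 9 genes were high in the control and on Collagen I and low on fibronectin and Geltrex™.

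**Figure D1:**
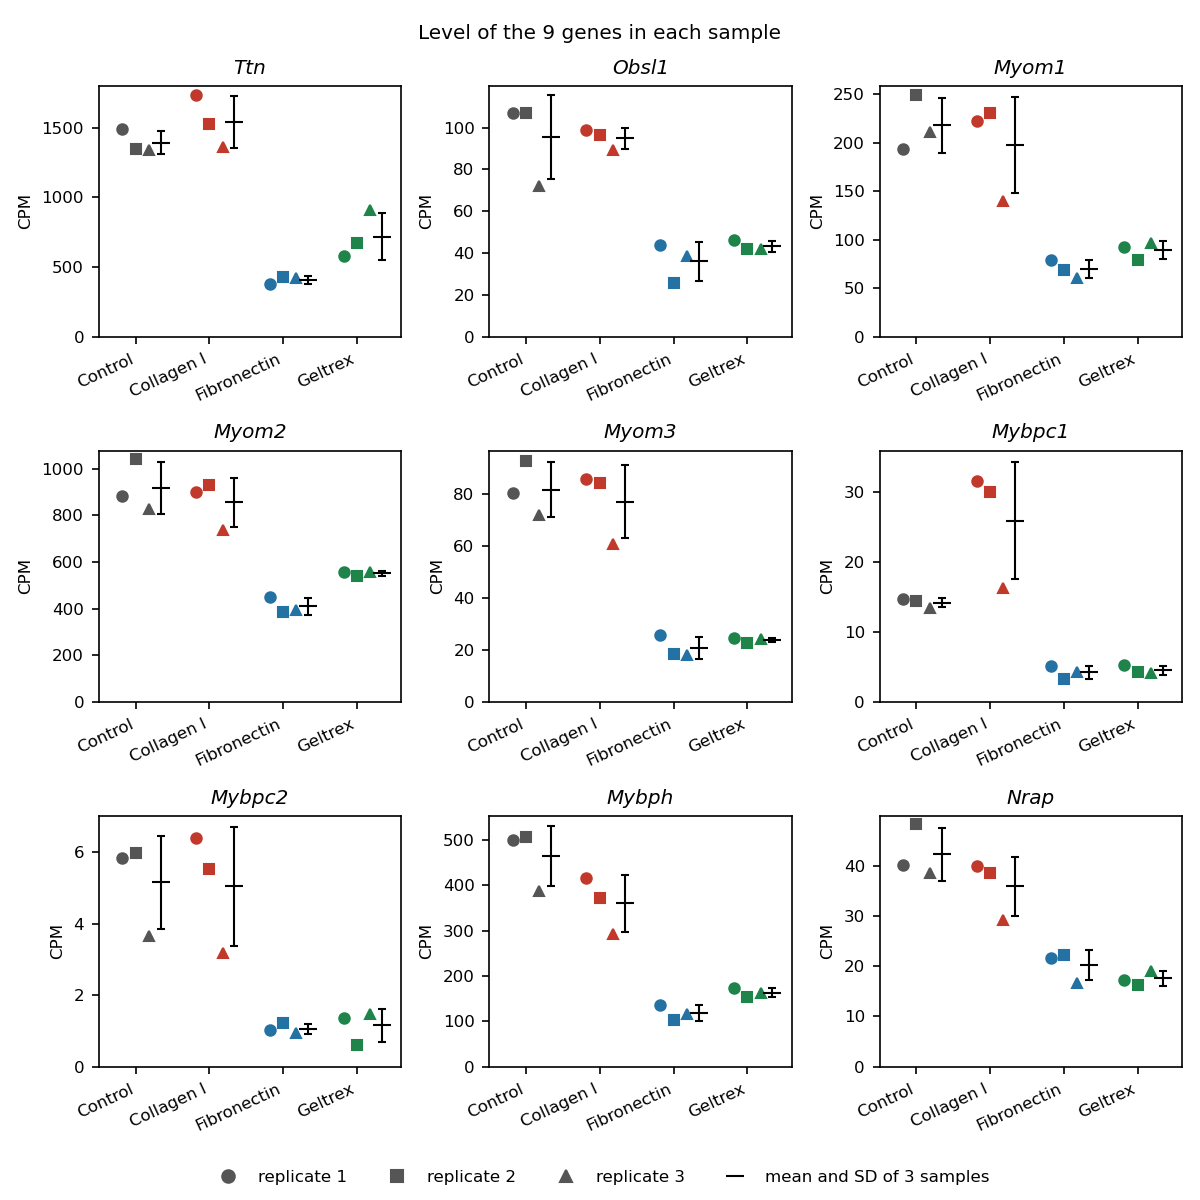
Level of each of the 9 genes (CPM, linear axis from 0) in the 12 samples by group, with replicates as circles, squares, and triangles and the mean and SD of 3 samples in black. For every gene the 6 samples on fibronectin and Geltrex™ lie below the 3 control samples, and *Mybpc1* alone has its 3 Collagen I samples above the control.

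All 9 genes fell on fibronectin relative to the control, by 1.06 to 2.28 on the log2 scale (median −1.74, against −0.016 over all genes tested), and all 9 by at least 2-fold. Of all genes tested, 14.7% were called lower in this comparison and 4.23% were called lower by at least 2-fold. In each of the 9 genes the 3 fibronectin samples lay below the 3 control samples, as was the case for 20.3% of all genes. All 9 genes also fell on Geltrex™, by 0.74 to 2.17 (median −1.28, against −0.012 over all genes), 7 of them by at least 2-fold. *Ttn* and *Myom2*, at −0.74, stayed short of 2-fold. The corresponding shares of all genes were 16.6% called lower, 4.99% called lower by at least 2-fold, and 25.1% without overlap, while all 9 members were without overlap. Both comparisons use the same control samples, so they are not independent of each other.

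Against fibronectin, all 9 genes were higher on Collagen I, by 0.83 to 2.61 (median 1.61, against 0.022 over all genes), and 8 by at least 2-fold, the exception being *Nrap* (0.83, SE 0.14, adjusted p = 0.000196). Over all genes 22.1% were called higher, 4.86% were called higher by at least 2-fold, and 25.9% had no overlap between the samples, which held for all 9 members. Against Geltrex™, all 9 genes were higher on Collagen I by 0.64 to 2.53 (median 1.14, against 0.026 over all genes), 8 of them by at least 2-fold, the exception being *Myom2* (0.64, SE 0.10, adjusted p = 0.000215). Here 18.2% of all genes were called higher, 4.77% by at least 2-fold, and 27.1% had no overlap, again with all 9 members among them. The reads of the 9 genes together made up 0.293% to 0.345% of all counts in the control, 0.271% to 0.361% on Collagen I, 0.102% to 0.112% on fibronectin, and 0.148% to 0.179% on Geltrex™.

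**Figure D2:**
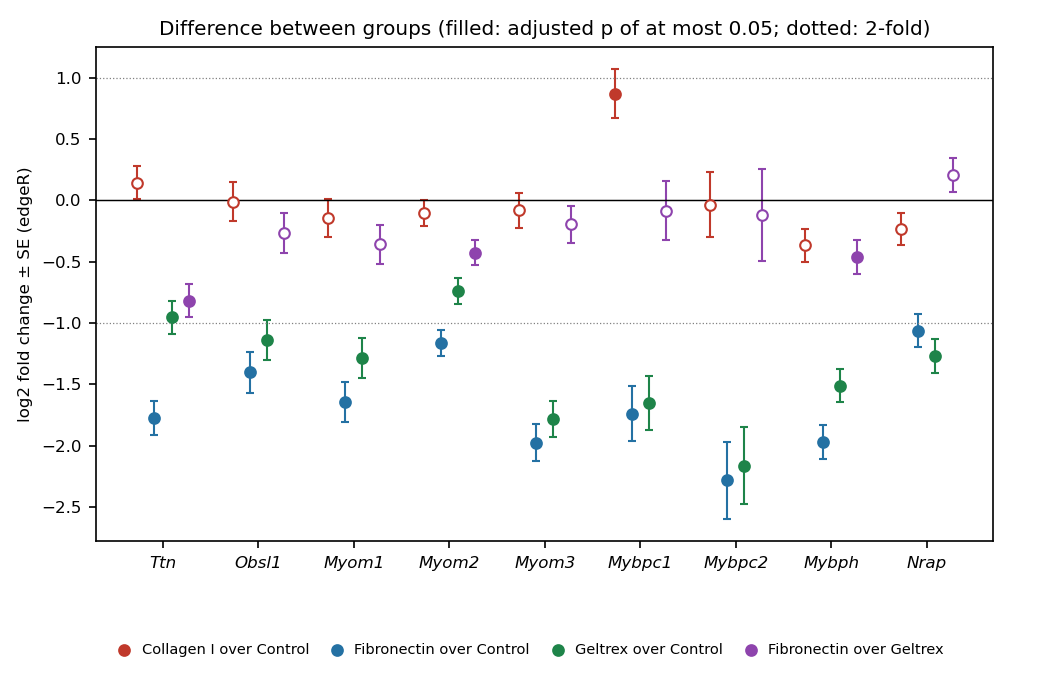
Log2 fold changes with their SE from edgeR (vertical axis) for the 9 genes in 4 comparisons, with filled points at an adjusted p of at most 0.05 and dotted lines at 2-fold. The fibronectin and Geltrex™ points lie between −0.74 and −2.28 below the control, while 8 of the 9 Collagen I points are open and *Mybpc1* is filled at 0.87.

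Among the M-band genes, *Myom2*, which encodes M-protein, was the most abundant and fell least. Its level was 884, 1043, and 828 CPM in the control, 901, 929, and 737 on Collagen I, 384 to 450 on fibronectin, and 539 to 558 on Geltrex™. The latter 2 groups lay below all control samples and apart from each other. It fell by 1.16 on fibronectin (SE 0.11, adjusted p = 7.70e-07) and by 0.74 on Geltrex™ (SE 0.10, adjusted p = 5.38e-05).

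*Myom1*, the myomesin present in all striated muscle, was at 194, 249, and 211 CPM in the control. It was at 222, 230, and 140 CPM on Collagen I, where replicate 3 lay below all control samples. Fibronectin samples were at 60.6 to 79.5 CPM and Geltrex™ samples at 79.1 to 96.2 CPM, and these ranges met only at their edges. The fall was 1.64 on fibronectin (SE 0.16, adjusted p = 1.77e-06) and 1.28 on Geltrex™ (SE 0.16, adjusted p = 1.48e-05).

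*Myom3*, a myomesin of particular fiber types, had the steepest fall of the 3. From 80.5, 93.0, and 71.9 CPM in the control it came to 25.7, 18.4, and 18.2 CPM on fibronectin and 24.5, 22.8, and 24.0 CPM on Geltrex™, with the last 2 groups overlapping. Its log2 fold change was −1.98 on fibronectin (SE 0.15, adjusted p = 1.20e-07) and −1.78 on Geltrex™ (SE 0.15, adjusted p = 2.34e-07). On Collagen I it stood at 86.1, 84.6, and 61.1 CPM and was not called (−0.08, SE 0.14, adjusted p = 0.811).

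*Obsl1*, which ties myomesin to titin, was at 107, 107, and 72.3 CPM in the control and 98.7, 96.4, and 89.3 CPM on Collagen I. It was at 25.7 to 43.7 CPM on fibronectin and 41.7 to 46.4 CPM on Geltrex™. The low coatings overlapped with each other and not with the control. It fell by 1.40 on fibronectin (SE 0.16, adjusted p = 1.14e-05) and 1.14 on Geltrex™ (SE 0.16, adjusted p = 6.10e-05).

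The unequal falls of the myomesins changed the make-up of the family. Per kb of exon, *Myom2* supplied 75.1% ± 0.678 of myomesin counts in the control and 75.5% ± 2.13 on Collagen I, but 82.1% ± 1.24 on fibronectin and 83.3% ± 0.861 on Geltrex™ (SD, n = 3). The share of *Myom3* went from 9.81% ± 0.320 in the control to 6.06% ± 0.636 and 5.27% ± 0.0690 on the same coatings. The log2 ratio of *Myom3* to *Myom1* counts within a library was −1.41 in the control, −1.34 on Collagen I, −1.76 on fibronectin, and −1.91 on Geltrex™. An exact permutation test of the 4 groups gave p = 0.0029 (adjusted over 12 ratios, 0.017). The ratio of *Myom1* to *Myom2* had group means of −2.08, −2.14, −2.56, and −2.63 in the same order (exact permutation p = 0.0069, adjusted 0.028). These tests ask whether the 4 groups differ anywhere and are two-sided, and the smallest p they can give is 6.5e-05. Without Geltrex™ the adjusted values were 0.086 and 0.094. That of *Myom1* to *Myom2* was 0.051 without control replicate 2, 0.052 without control replicate 3, and 0.06 without Geltrex™ replicate 2. It was 0.062 with the replicate number as a block.

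**Figure D3:**
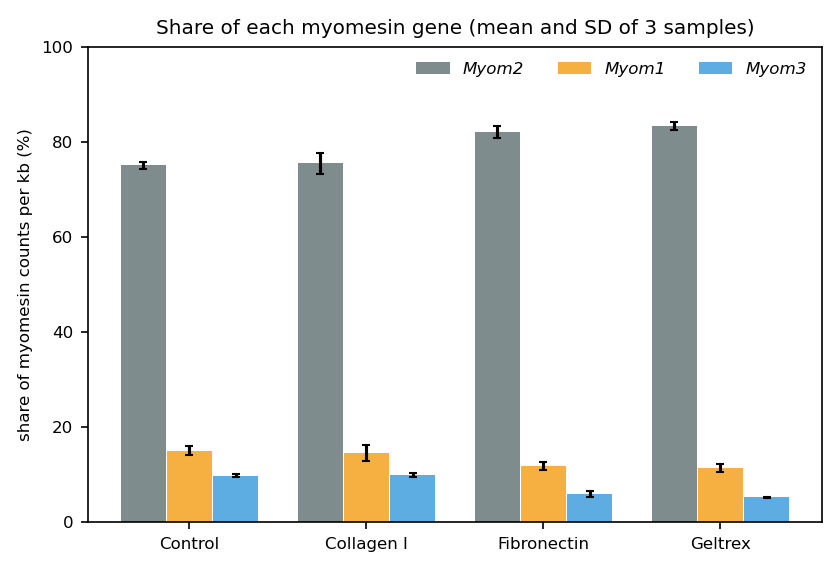
Share of *Myom2*, *Myom1*, and *Myom3* in their summed counts per kb of exon (%, linear axis from 0) in each group, as bars for the mean of 3 samples with the SD. The *Myom2* bar is higher on fibronectin (82.1%) and Geltrex™ (83.3%) than in the control (75.1%) or on Collagen I (75.5%).

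Of the thick filament proteins, *Mybpc1*, the slow-type protein C, was the one member called between Collagen I and the control. It was at 14.7, 14.5, and 13.4 CPM in the control and at 31.6, 30.0, and 16.3 CPM on Collagen I. Replicate 3 lay far below the other 2 Collagen I samples, and all 3 lay above the control. The gene was 1.83-fold higher on Collagen I (log2 fold change 0.87, SE 0.20, adjusted p = 0.0443), where 0.2% of all genes were called higher and 0.917% lower. Without Collagen I replicate 3, the difference was 1.11 (adjusted p = 0.00206). The call was lost in 9 of the 12 fits that each left out 1 library, with adjusted p-values up to 0.15, the exceptions being Collagen I replicate 3 and fibronectin replicates 2 and 3, and in a fit of the control and Collagen I samples alone (0.88, adjusted p = 0.127), while every fit kept the direction.

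On fibronectin *Mybpc1* fell to 5.16, 3.27, and 4.27 CPM and on Geltrex™ to 5.21, 4.2, and 4.10 CPM, values that overlapped. These levels rest on 78 to 139 counts per sample. Relative to the control it fell by 1.74 on fibronectin (SE 0.22, adjusted p = 2.49e-05) and by 1.65 on Geltrex™ (SE 0.22, adjusted p = 3.08e-05). Collagen I exceeded fibronectin by 2.61 (SE 0.22, adjusted p = 2.54e-07) and Geltrex™ by 2.53 (SE 0.22, adjusted p = 3.47e-07), the largest among the 9 genes in both cases, on the log2 scale.

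*Mybpc2*, the fast-type protein C, was the least abundant member, with 86 to 163 counts per sample in the control, 74 to 149 on Collagen I, 24 to 29 on fibronectin, and 15 to 33 on Geltrex™. Its levels were 5.85, 5.98, and 3.65 CPM in the control and 6.41, 5.54, and 3.19 CPM on Collagen I, so that replicate 3 was lowest in both. They were 0.932 to 1.21 CPM on fibronectin and 0.618 to 1.49 CPM on Geltrex™. It fell by 2.28 on fibronectin (SE 0.31, adjusted p = 5.37e-05) and 2.17 on Geltrex™ (SE 0.31, adjusted p = 6.75e-05), the largest falls of the 9 genes and those with the widest errors.

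The slow and fast forms were also compared within each library. The log2 ratio of *Mybpc1* to *Mybpc2* counts was 1.33, 1.27, and 1.87 in the control and 2.30, 2.43, and 2.34 on Collagen I. It was 2.29, 1.41, and 2.17 on fibronectin and 1.91, 2.73, and 1.45 on Geltrex™. The 3 Collagen I values lay above the 3 control values, whereas those of the other coatings spread over both. The 4 groups were not distinguished (exact permutation p = 0.19, adjusted 0.23).

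*Mybph*, the gene of myosin-binding protein H, had the highest level per kb of exon of the 9, at 199 CPM per kb in the control. Its level was 500, 506, and 387 CPM in the control and 417, 371, and 293 CPM on Collagen I. It was 102 to 137 CPM on fibronectin and 153 to 173 CPM on Geltrex™. The samples of the last 2 groups were apart from each other and from the rest. The fall was 1.97 on fibronectin (SE 0.14, adjusted p = 5.31e-08) and 1.51 on Geltrex™ (SE 0.14, adjusted p = 5.77e-07). On Collagen I the value was −0.37 (SE 0.13, unadjusted p = 0.0149, adjusted p = 0.209), which made *Mybph* and *Mybpc1* the 2 members with an unadjusted p under 0.05 in that comparison. Of its exon bases, 49.9% lie opposite exons of *Adora1*, which had 2442 counts in the 12 samples against 82368 for *Mybph*, and whether counting used the strand is not stated.

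*Nrap*, the assembly protein, was the only member with a lower mean on Geltrex™ than on fibronectin. It was at 40.1, 48.2, and 38.4 CPM in the control, 39.9, 38.6, and 29.1 CPM on Collagen I, 21.6, 22.3, and 16.7 CPM on fibronectin, and 17.3, 16.3, and 19.1 CPM on Geltrex™. The last 2 groups overlapped, and fibronectin over Geltrex™ was not called (log2 fold change 0.20, SE 0.14, adjusted p = 0.323). *Nrap* fell by 1.06 on fibronectin (SE 0.14, adjusted p = 2.48e-05), the smallest fall of the 9, and by 1.27 on Geltrex™ (SE 0.14, adjusted p = 3.48e-06). The log2 ratio of *Nrap* to *Ttn* counts was −5.05 in the control, −5.43 on Collagen I, −4.34 on fibronectin, and −5.33 on Geltrex™, and the 3 fibronectin samples (−4.12, −4.26, and −4.65) lay above all other 9. The 4 groups differed (exact permutation p = 0.0027, adjusted 0.017), and the adjusted p stayed between 0.018 and 0.046 when any single library was left out.

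Among the other ratios to *Ttn*, that of *Myom2* had group means of −0.61 in the control, −0.85 on Collagen I, 0.0056 on fibronectin, and −0.36 on Geltrex™ (exact permutation p = 0.012, adjusted 0.028). The ratio of *Mybpc1* had means of −6.61, −5.94, −6.61, and −7.29 in the same order (exact permutation p = 0.011, adjusted 0.028), and that of *Mybpc2* of −8.10, −8.30, −8.56, and −9.32 (exact permutation p = 0.023, adjusted 0.045). Leaving out single libraries moved the adjusted p of these 3 ratios to as much as 0.091, 0.097, and 0.15. It passed 0.05 in 9, 8, and 11 of 12 such tests, respectively. In Geltrex™ replicates 1 to 3 the ratio was −0.051, −0.32, and −0.71 for *Myom2* and −6.78, −7.32, and −7.78 for *Mybpc1*. For *Mybpc2* it was −8.70, −10.0, and −9.23. The denominator of these ratios, *Ttn*, rose over the same replicates (576, 673, and 909 CPM). The ratios of *Obsl1*, *Myom1*, *Myom3*, and *Mybph* to *Ttn* were not distinguished between the groups (adjusted exact permutation p from 0.064 to 0.34), although *Myom3* reached 0.029 without fibronectin replicate 1 and 0.038 without Geltrex™ replicate 1, and *Mybph* 0.046 without the latter. *Ttn* relative to the summed counts of 6 sarcomeric myosin heavy chain genes was at −1.02, −0.89, −0.80, and −0.31 (exact permutation p = 0.047, adjusted 0.071, and 0.044 without Geltrex™ replicate 1).

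**Figure D4:**
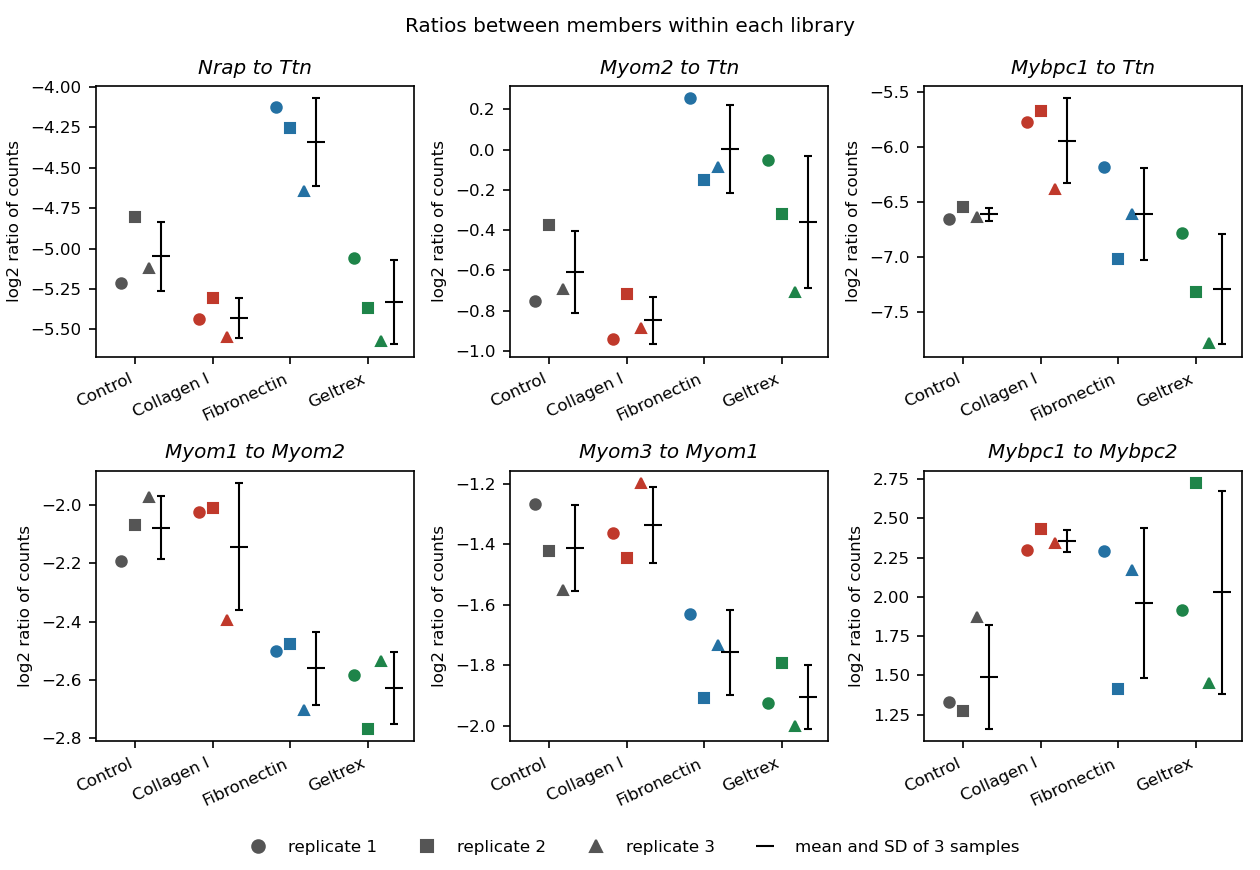
Log2 ratios of counts between pairs of members (vertical axes, 1 panel per ratio) in the 12 libraries by group, with replicates as circles, squares, and triangles and the mean and SD of 3 samples in black. *Nrap* to *Ttn* is highest in the 3 fibronectin libraries, and *Mybpc1* to *Mybpc2* is above the control in the 3 Collagen I libraries.

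Between fibronectin and Geltrex™, the groups in which all members were low, 3 of the 9 genes were called, each lower on fibronectin, and 6 were not. Of all genes, 10.3% were called higher and 9.06% lower. *Ttn* was lower on fibronectin by 0.82 (log2 fold change −0.82, SE 0.14, adjusted p = 0.000503), *Myom2* by 0.43 (−0.43, SE 0.10, adjusted p = 0.00916), and *Mybph* by 0.46 (−0.46, SE 0.14, adjusted p = 0.0251). The call for *Mybph* was lost without fibronectin replicate 2 (adjusted p = 0.119), Geltrex™ replicate 1 (0.0963), or Geltrex™ replicate 3 (0.0723). With the Geltrex™ samples summed into 1, *Mybph* (adjusted p = 0.277) and *Myom2* (0.205) were not called. *Myom1* was called, lower on fibronectin, with no filter on low counts (adjusted p = 0.00457), with only these 2 groups (0.0254), and without Collagen I replicate 3 (0.0279). For the other 6 the values ran from −0.36 (SE 0.16, *Myom1*) to 0.20 (SE 0.14, *Nrap*).

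The spread of *Ttn* on Geltrex™ was unusual for that group. Its coefficient of variation over the 3 samples was 23.8%, and 2 of 2335 genes with a mean of at least 100 CPM exceeded it, where the median was 2.43% and *Myom2* had 1.91%. Replicate 3 exceeded replicate 1 by 1.58 times for *Ttn* and 1.44 times for *Neb*, the nebulin gene (101, 107, and 145 CPM). Both are genes of long transcripts, and the median of this ratio rose with exon length over all genes. It was 0.977 for 5368 genes under 5 kb, 1.005 for 3679 genes of 5 to 10 kb, 1.03 for 830 genes of 10 to 15 kb, 1.07 for 290 genes of 15 to 25 kb, and 1.13 for the 32 genes from 25 kb, of which 30 were higher in replicate 3. The ratio of *Ttn* was above these medians, and the other 7 members with a mean of at least 5 CPM were between 0.787 and 1.10. Without replicate 3, *Ttn* was lower on Geltrex™ than in the control by 1.16 (log2 fold change −1.16, adjusted p = 7.94e-06) and lower on fibronectin than on Geltrex™ by 0.61 (−0.61, adjusted p = 0.00257). The part of transcript length in the level of *Ttn* was not tested.

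**Figure D5:**
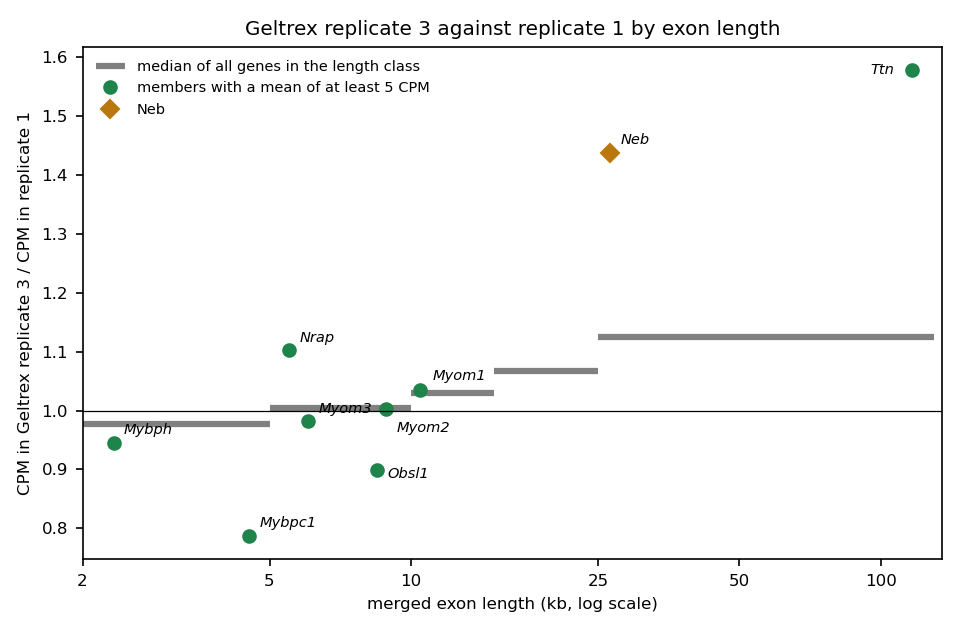
CPM in Geltrex™ replicate 3 divided by CPM in replicate 1 (vertical axis) against merged exon length (kb, log axis) for 8 members and *Neb*, with grey bars for the median of all genes with a mean of at least 5 CPM in each length class, the first of which takes in all genes under 5 kb. The grey bars climb from 0.977 to 1.13, and *Ttn* stands highest at 1.58.

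Levels in CPM per kb of exon put the members in the same rank at the top and bottom of every group. In the control they were 199 for *Mybph*, 104 for *Myom2*, 20.8 for *Myom1*, 13.5 for *Myom3*, 11.9 for *Ttn*, 11.3 for *Obsl1*, 7.67 for *Nrap*, 3.14 for *Mybpc1*, and 1.43 for *Mybpc2*. On fibronectin *Mybph* (50.8 ± 7.44) and *Myom2* (46.3 ± 3.98) were within their spread, and *Obsl1* (4.26 ± 1.09), *Nrap* (3.67 ± 0.552), *Ttn* (3.49 ± 0.231), and *Myom3* (3.44 ± 0.708) were close to each other. Merged exons count every annotated isoform, so that these values are lower for genes such as *Ttn* of which a cell uses only part of the exons.

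Across the 12 samples the log2 levels of members correlated with each other at a Pearson r between 0.820 (*Ttn* and *Nrap*) and 0.983 (*Myom2* and *Mybph*). These r values describe 4 groups of samples, share libraries, and were not tested. The 5 genes most like *Ttn* among 10191 genes with a mean of at least 5 CPM were *Coro6* (r = 0.981), a coronin of the actin cytoskeleton, *Cmbl* (0.971), *Cdh13* (0.971), T-cadherin, *Parp3* (0.971), and *Mpi* (0.970). *Obsl1* was most like *Trim72* (0.993), a membrane repair gene of muscle, followed by *Fxyd6* and *Sh3bgr*. *Myom1* was most like *Tmem182* (0.992), *Klhl41*, and *Lmod2*. *Myom2* was most like *Tmod1* (0.990), which caps thin filaments, *Patj*, and *Afap1l1*. *Myom3* was most like *Unc45b* (0.993), a myosin chaperone, *Srl*, and *Usp13*. *Mybpc1* was most like *Tspan7* (0.985), *Tnfrsf19*, and *Etfbkmt*. *Mybpc2* was most like *Lvrn* (0.987), *Fst*, the follistatin gene, and *Trim55*. *Mybph* was most like *Dysf* (0.994), the gene of the membrane repair protein dysferlin, *Patj*, and *Gys1*. *Nrap* was most like *Erbb3* (0.991), a neuregulin receptor, *Mef2c*, a muscle transcription factor, and *Armcx4*.

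The proteins that bind titin and the M-band were followed in a list of 19 genes, of which 17 were tested. On fibronectin 12 fell and 1 rose relative to the control (median −1.06, against −0.016 over all genes). On Geltrex™ 10 fell and 2 rose (median −0.48, against −0.012). Of all 14499 genes tested, 14.7% and 16.6% were called lower on these coatings, and 2485 and 2373 genes were called higher. On Collagen I 1 fell and 0 rose, where 0.917% of all genes were called lower and 0.2% higher. Between fibronectin and Geltrex™, 5 were lower on fibronectin and 0 higher, against 9.06% and 10.3% of all genes. Relative to fibronectin 14 were higher and 1 lower on Collagen I, and relative to Geltrex™ 12 were higher and 2 lower. Of all genes, 22.1% and 18.2% were called higher on Collagen I in these comparisons, and 3319 and 2751 of 14499 lower.

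*Ankrd2*, a stretch-responsive ankyrin repeat protein that binds the titin spring, was the list's called gene on Collagen I, at 33.8 ± 1.12 CPM in the control and 21.5 ± 3.16 on Collagen I (log2 fold change −0.65, SE 0.11, adjusted p = 0.00794). That call was lost without Collagen I replicate 2 (adjusted p = 0.0543) and with only the 2 groups compared (0.057). It also had the list's largest change on fibronectin, to 6.22 ± 0.484 CPM (−2.44, SE 0.12, adjusted p = 2.28e-09). On Geltrex™ the largest change was that of *Trim63*, the ubiquitin ligase MuRF1 that binds titin near the M-band, from 29.8 ± 5.27 to 4.86 ± 0.606 CPM (−2.62, SE 0.15, adjusted p = 5.74e-09).

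The 3 most abundant genes of the list were *Ankrd1*, *Sqstm1*, and *Fhl1*. *Ankrd1*, a relative of *Ankrd2*, was at 804 ± 7.96 CPM in the control, 749 ± 84.2 on Collagen I, 599 ± 66.7 on fibronectin, and 1712 ± 33.7 on Geltrex™. It fell by 0.43 on fibronectin (SE 0.09, adjusted p = 0.00296) and was 1.09 higher on Geltrex™ (SE 0.10, adjusted p = 3.89e-07). *Sqstm1*, an autophagy receptor in the titin kinase complex, was not called in any comparison with the control, at 764 ± 23.4, 716 ± 25, 749 ± 53.5, and 691 ± 19.8 CPM. *Fhl1*, a LIM protein of the titin spring, was called in 1 comparison with the control, lower on Geltrex™ (−0.29, SE 0.09, adjusted p = 0.0211).

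Of 11 genes for myosin chaperones and titin splicing, 4 fell and 1 rose on fibronectin (median −0.11, against −0.016 over all genes). On Geltrex™, 4 fell and 1 rose (median 0.041, against −0.012). Of all 14499 genes tested, 14.7% and 16.6% were called lower on these coatings, and 2485 and 2373 genes were called higher. On Collagen I 1 fell and 0 rose, where 0.917% of all genes were called lower and 0.2% higher. *Unc45b*, the muscle myosin chaperone, had the largest change on both, from 32.9 ± 6.79 CPM in the control to 8.11 ± 2.15 on fibronectin (−2.02, SE 0.19, adjusted p = 1.29e-06) and 8.41 ± 0.851 on Geltrex™ (−1.97, SE 0.19, adjusted p = 1.30e-06). *Ptbp1*, a splicing repressor, was the gene that rose on both, from 118 ± 5.78 CPM to 173 ± 10.5 (0.55, SE 0.07, adjusted p = 3.64e-05) and 154 ± 3.22 (0.38, SE 0.07, adjusted p = 0.000751). It was also the one that fell on Collagen I, to 91.0 ± 3.45 CPM (−0.38, SE 0.07, adjusted p = 0.0199). The call on Collagen I was lost in 6 of 12 fits without 1 library, namely without control replicate 2 (adjusted p = 0.0728) or 3 (0.0844), Collagen I replicate 1 (0.0911) or 2 (0.0918), or Geltrex™ replicate 1 (0.0522) or 2 (0.0504). It was also lost with only the 2 groups compared (0.137) and with Geltrex™ summed (0.105).

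The general chaperones *Hsp90ab1* and *Hsp90aa1*, the most abundant genes of this list, were not called in any comparison with the control, with log2 fold changes between −0.11 and 0.18. *Cryab*, the small heat shock protein αB-crystallin, fell from 296 ± 14.7 CPM to 183 ± 0.523 on fibronectin (−0.69, SE 0.09, adjusted p = 3.18e-05) and 220 ± 5.52 on Geltrex™ (−0.43, SE 0.09, adjusted p = 0.00163). *Rbm20*, the splicing factor best known for choosing titin exons, had a value of 0.20 on fibronectin (SE 0.12, adjusted p = 0.218) and 0.04 on Geltrex™ (SE 0.12, adjusted p = 0.825). *Rbm24*, of the same list, fell on fibronectin (−1.40, SE 0.14, adjusted p = 1.63e-06) and on Geltrex™ (−0.64, SE 0.13, adjusted p = 0.00155). These are values of whole genes, and no isoform of *Ttn* was measured. *Rbm20* and *Rbm24* were singled out after their values were seen.

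Of 16 genes that assemble myofibrils with Nrap, all tested, 13 fell and 0 rose on fibronectin (median −1.32, against −0.016 over all genes). On Geltrex™, 12 fell and 1 rose (median −1.14, against −0.012). Over all genes, 14.7% and 16.6% were called lower on these coatings. On Collagen I edgeR called 0 in either direction, against 162 of all 14499 genes. DESeq2 called 2, of which 1 was higher, against 452 of 12827 genes. With edgeR 5 had an unadjusted p under 0.05, and the share of all genes under that value was not counted. *Klhl41*, a kelch protein that binds Nrap, had the largest fall on fibronectin, from 307 ± 23.6 to 63.0 ± 8.81 CPM (−2.28, SE 0.17, adjusted p = 1.39e-07), and *Xirp2*, an actin-binding repeat protein with low counts, the largest on Geltrex™, from 4.89 ± 1.16 to 1.11 ± 0.379 CPM (−2.13, SE 0.41, adjusted p = 0.000805). *Flnc*, filamin C, the most abundant gene of the list, fell from 1134 ± 204 to 662 ± 95.9 CPM on fibronectin (−0.78, SE 0.12, adjusted p = 0.000200) and stood at 954 ± 17.5 CPM on Geltrex™ (−0.25, SE 0.12, adjusted p = 0.132). The adhesion genes *Tln1* and *Vcl*, which link integrins to actin, were not called lower on either coating. *Tln1*, talin 1, rose on Geltrex™ (0.37, SE 0.08, adjusted p = 0.00276), and *Vcl*, vinculin, had values of 0.26 and 0.04 (SE 0.17 for both, adjusted p = 0.274 and 0.895).

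The annotated places of the members in GENCODE M21 on GRCm38 were chr2:76703980-76982547 for *Ttn*, chr1:75479310-75506452 for *Obsl1*, chr17:71002633-71126856 for *Myom1*, chr8:15057653-15133541 for *Myom2*, chr4:135759715-135815564 for *Myom3*, chr10:88518279-88605152 for *Mybpc1*, chr7:44501699-44524656 for *Mybpc2*, chr1:134193448-134201232 for *Mybph*, and chr19:56320035-56390037 for *Nrap*. Beside *Mybph*, exon bases shared with another gene made up at most 5.57% of a member (*Mybpc1*). The partner with the most counts was *Myl12a*, with 120766 counts in the 12 samples and 1.98% of the exon bases of *Myom1*.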

How the data were processed

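RNA from 12 samples of C2C12 cells was sequenced as paired reads. The authors used Trimmomatic for trimming, HISAT2 for alignment, and featureCounts for counting, and the deposited values are raw counts per gene. The genome build, the annotation, and the strand setting are not given in the sources used here. Names, positions, and exon lengths came from GENCODE M21 (GRCm38), which holds every identifier in the table.

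Counts were fitted with edgeR 4.0.16 in R 4.3.3, using filterByExpr with a minimum count of 10, TMM, and 1 quasi-likelihood model of the 4 groups with 8 residual degrees of freedom. The Benjamini-Hochberg adjustment covered all 14499 genes tested. The SE is the size of the log2 fold change divided by the root of F. Ratios between members used counts plus 0.5 and an exact permutation test over 15400 arrangements. The scripts were tested on simulated data.

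The 9 members and all lists were chosen with earlier results of these data known. Besides the members, the text names the genes most like each by the Pearson r of log2 CPM, and in each list the 3 most abundant genes and the called gene with the largest change against the control. A gene of 1 list is not reported here by name. Alternatives were DESeq2 1.42.0, RLE, 2 other filters on low counts, fits of 2 groups, a replicate block, leaving out each sample, and summing the Geltrex™ samples. Errors are widest for genes with few counts, such as *Mybpc2*.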

Additional observations from a re-analysis of the deposited data

How the results depend on the processing

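In the comparisons of fibronectin and Geltrex™ with the control and with Collagen I, all 684 values of the 9 genes under 19 alternatives kept their direction and their call. For the 9 genes, the calls and directions that moved lie in the other comparisons. Counts of called list genes also moved in comparisons of fibronectin and Geltrex™ with the control and with Collagen I, as given below. The causes of what moved were not tested. Between Collagen I and the control, the count of members called was 2 with no filter on low counts, 0 with only the 2 groups compared, 0 with the Geltrex™ samples summed, and 0 at 2-fold, and it ran from 0 to 1 when each library was left out. With no filter the added member was *Mybph* (−0.36, adjusted p = 0.0118). In the main fit 162 of all 14499 genes were called in this comparison, 19 of them at 2-fold. The calls over all genes were 581 of 29301 with no filter, 39 of 13959 with 2 groups, and 452 of 12827 with DESeq2. With each library left out, between 44 and 233 of all genes were called. In the same comparison, titin and M-band partners called were 2 with DESeq2, 2 with no filter, 0 with 2 groups, 0 at 2-fold, and 0 to 2 with each library left out. Chaperone and splicing genes called were 0 with 2 groups, 0 with Geltrex™ summed, 0 at 2-fold, and 0 to 1 with each library left out. Nrap partners called were 2 with DESeq2, 5 with no filter, and 0 to 1 with each library left out. At 2-fold, chaperone and splicing genes called were 3 on fibronectin and 2 on Geltrex™ against the control, 3 and 2 for Collagen I against fibronectin and Geltrex™, and 0 between these coatings. Nrap partners called at 2-fold were 8 on Geltrex™ against the control, 9 on Collagen I against fibronectin, and 0 between fibronectin and Geltrex™, and titin partners called were 9 and 1 in the latter 2 comparisons. With Geltrex™ summed into 1 sample, chaperone and splicing genes called on Geltrex™ against the control were 3, where the lone sample is assumed to vary like the other groups.

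Between fibronectin and Geltrex™, members called were 1 with Geltrex™ summed, which left *Ttn*, and 0 at 2-fold. Chaperone and splicing genes called there were 2 with DESeq2, 2 with no filter, 2 with a minimum of 10 counts in all samples, 3 with 2 groups, and 1 to 3 with each library left out. Nrap partners called were 6 with DESeq2, 9 with no filter, 7 with 2 groups, and 3 to 7 with each library left out. Over all genes, 2805 of 14499 were called in the main fit. The calls were 2972 of 15099 with DESeq2, 3122 of 29301 with no filter, and 3521 of 13698 with 2 groups.

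Members that were not called changed sign in some fits without 1 library. Between Collagen I and the control these fits ran from −0.17 to 0.088 for *Obsl1*, −0.27 to 0.045 for *Myom1*, −0.17 to 0.0047 for *Myom2*, −0.17 to 0.052 for *Myom3*, and −0.23 to 0.20 for *Mybpc2*. Between fibronectin and Geltrex™ they ran from −0.26 to 0.067 for *Mybpc1* and −0.43 to 0.10 for *Mybpc2*. Over all fits some called members crossed 2-fold, so the counts of members at 2-fold depend on the fit. Relative to the control, *Nrap* ran from −1.137 to −0.936 on fibronectin and *Ttn* from −1.155 to −0.806 on Geltrex™. Collagen I over fibronectin ran from 0.996 to 1.164 for *Myom2*. Collagen I over Geltrex™ ran from 0.954 to 1.3 for *Ttn* and 0.945 to 1.161 for *Nrap*.

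For the ratios, the adjusted p without Geltrex™ was 0.13 for *Mybpc1* to *Ttn*, 0.3 for *Mybpc2* to *Ttn*, 0.094 for *Myom1* to *Myom2*, and 0.086 for *Myom3* to *Myom1*. With each library left out it ran from 0.02 to 0.091 for *Myom2* to *Ttn*, 0.029 to 0.22 for *Myom3* to *Ttn*, 0.018 to 0.097 for *Mybpc1* to *Ttn*, 0.018 to 0.15 for *Mybpc2* to *Ttn*, 0.046 to 0.34 for *Mybph* to *Ttn*, 0.022 to 0.06 for *Myom1* to *Myom2*, and 0.044 to 0.22 for *Ttn* to the myosin heavy chains.

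The samples share replicate numbers, and whether the numbers pair them is not known. No comparison had all 3 correlations between same-numbered samples above 0.1. Between Collagen I and fibronectin every sample correlated best with its own number (0.047, 0.17, and 0.23). In each other comparison not every sample did. With 3 samples per group these correlations cannot decide whether the samples were paired. With the replicate number as a block, all 54 values of the members kept their call, Nrap partners called were 1 between Collagen I and the control and 5 between fibronectin and Geltrex™, chaperone and splicing genes called were 2 in the latter, and *Myom1* to *Myom2* had an adjusted p of 0.062.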
